A study of Mus musculus with 26 samples.

Results

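Lpl-high fibroblasts were cells of mouse skin that carried many transcripts of Lpl, the gene of lipoprotein lipase, beside transcripts of the fibroblast collagen gene Col1a1. They were picked from 2 single-cell libraries, called tube 1 and tube 2. A barcode was kept with at least 500 genes and at most 10% of its UMIs (counted RNA molecules) from mitochondrial genes. It was a member with at least 5 Lpl UMIs, at least 1 Col1a1 UMI and no UMI of Ptprc, the leukocyte marker CD45. The rule found 1939 members among 22900 kept cells with Col1a1 and without Ptprc, and the remaining 20961 are called other fibroblasts. In tube 1 there were 1418 members among 18172 fibroblasts, and in tube 2 there were 521 among 4728. Since Lpl counts chose the members, every difference between members and other fibroblasts is a description without a test.

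The study compared Prrx1-positive fibroblasts (PPF) and Prrx1-negative fibroblasts (PNF), sorted by FACS from skin of Prrx-Cre mice, in which a Prrx1 enhancer drives the Cre recombinase. The single-cell design pooled 8 hashtagged samples over the tubes, of both lineages, from caudal and ventral skin, wounded and unwounded. The labels of both tubes give only postnatal ventral skin, and the hashtag of each sample is not named there or in the design text. Each tube was therefore treated as 1 sample with no replicate, and lineage, site and wounding were not compared in single cells. The bulk RNA libraries came from ventral skin of PPF at E16.5 (2 libraries), E18.5 (2), P1 (2) and P30 (6), and of PNF at E16.5 (2), E18.5 (4), P1 (4) and P30 (2). E marks embryonic and P postnatal days. All groups share the Prrx-Cre strain, and the sources used here do not say how the Cre or a reporter set the gate. The labels do not say whether libraries of 1 group came from separate animals, so p-values measure the spread between these libraries only.

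Lipoprotein lipase splits the triglycerides of circulating lipoproteins so that tissues can take up the fatty acids. Adipocytes, muscle and macrophages are its best known sources, and in forming fat cells it is among the early genes of differentiation. Fzd4 is a Frizzled receptor for Wnt ligands and for Norrin, and Gpc3 is a glypican, a heparan sulfate proteoglycan at the cell surface that binds Wnt and hedgehog ligands. In skin, fibroblasts of the lower dermis and fascia include precursors of the dermal fat layer, and canonical Wnt signals hold adipogenesis back.

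The members were deeper than the other fibroblasts, which bears on a rule that counts UMIs. In tube 1 the median was 4090 UMIs and 1678 genes in members, against 2636 UMIs and 1179 genes in other fibroblasts. In tube 2 it was 8022 UMIs and 2543 genes in members, against 4177 UMIs and 1611 genes in other fibroblasts. The share of mitochondrial UMIs was close in both populations, with medians of 6.35% and 6.47% in tube 1 and 4.10% and 4.25% in tube 2. Members made up 7.80% of the fibroblasts of tube 1 (exact binomial 95% interval 7.42 to 8.20) and 11.0% of those of tube 2 (10.1 to 11.9). These intervals cover counting error only, as do all others below. With tube 1 fibroblasts split into 4 equal classes of depth, the share was 1.30% in the shallowest class and then 3.87%, 8.27% and 17.8%. In tube 2 the depth classes held 1.95%, 6.0%, 10.1% and 26.0%. When every cell was thinned to 2000 UMIs, a count of at least 5 Lpl UMIs was left in 4.40% of tube 1 fibroblasts (4.06 to 4.77) and in 2.69% of tube 2 fibroblasts (2.22 to 3.22), the opposite order. The shares of the 2 tubes are therefore not comparable as such.

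Lpl itself varied over a wide range among the members. The median was 7 UMIs in tube 1 with a highest cell of 47, and 8 UMIs in tube 2 with a highest cell of 116. At least 15 Lpl UMIs were found in 182 members of tube 1 and 121 of tube 2. At the threshold, 313 tube 1 cells had exactly 5 Lpl UMIs and 417 had exactly 4, and in tube 2 the numbers were 115 and 194. No Lpl UMI was found in 10959 fibroblasts of tube 1 and 1952 of tube 2, and the members held 57.3% and 60.6% of all Lpl UMIs of fibroblasts. In cells thinned to 2000 UMIs, 96.4% of members and 28.3% of other fibroblasts of tube 1 kept an Lpl UMI. In tube 2 these were 87.2% of members and 32.3% of other fibroblasts. Of cells rich in leukocyte markers, which serve as a measure of free RNA for fibroblast genes, 13.6% of 22 in tube 1 and 25% of 8 in tube 2 had an Lpl UMI. Leukocytes such as macrophages can make Lpl, which can raise that background. Members were left out of these cells, which can lower it, so for this gene it bounds free RNA in neither direction.

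The cells had the profile of fibroblasts, and the fixed marker list did not separate them from the rest. Of 11 tested fibroblast genes, 1 was lower in members, S100a4, and none was higher. The genes of fibrillar collagen were at 15525 CPM (UMIs of the gene per 1000000 UMIs pooled over the population) for Col1a1 in members and 21945 in other fibroblasts of tube 1, and at 18096 and 24550 CPM in tube 2. Col3a1 was at 26442 and 28274 CPM in tube 1, and at 16509 and 17245 CPM in tube 2. Pdgfra, the receptor that marks skin fibroblasts, was at 339 CPM in members and 261 CPM in other fibroblasts of tube 1, and at 379 and 290 CPM in tube 2. Since Col1a1 was part of the rule its presence is no finding. The median member held 59 Col1a1 UMIs in tube 1 and 121 in tube 2, against 5 and 13.5 UMIs in leukocyte-marker cells. In tube 1, 28 members (1.97%) and in tube 2, 56 members (10.7%) lay at or under 2 times that background level.

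A gene was called when its pooled CPM differed at least 2-fold the same way in both tubes, with at least 10 CPM in the higher population of each, after 1 CPM was added to both. Genes that reached that level are called tested. Of 7887 genes tested, 41 were higher in members (0.52%) and 62 were lower (0.786%), together 103 (1.31%). The median log2 ratio over all tested genes was 0.03 in tube 1 and 0.02 in tube 2. By the rule for naming genes, those with the largest ratios that reached 100 CPM are given here in full, with members first.

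The other 2 markers of the cells, Fzd4 and Gpc3, were both higher in members of both tubes. Fzd4 was at 219 CPM in members (Poisson 95% interval 208 to 231) and 55.3 CPM in other fibroblasts of tube 1, and at 125 and 37.9 CPM in tube 2, which gives log2 ratios of 1.97 and 1.70. Gpc3 was at 449 and 146 CPM in tube 1 and at 335 and 117 CPM in tube 2, with log2 ratios of 1.61 and 1.51. At 2000 UMIs per cell, Fzd4 was found in 33.6% of members and 9.0% of other fibroblasts of tube 1, and in 25% and 6.24% in tube 2. The background in leukocyte-marker cells was 13.6% and 12.5% on 22 and 8 cells. These are too few to place the share in other fibroblasts above or below background. Gpc3 was found in 55.1% of members and 21.6% of other fibroblasts in tube 1 and in 41.0% and 18.1% in tube 2, and in 0 of those leukocyte-marker cells, which allows a share of up to 13.6% and 37.5%. In each depth class the order was the same. In the shallowest class Fzd4 was at 153 CPM in members and 43.0 CPM in other fibroblasts of tube 1, and at 156 and 45.4 CPM in tube 2. In the deepest it was at 210 and 65.6 CPM in tube 1, and at 115 and 34.9 CPM in tube 2.

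Fzd4 lies on chromosome 7 and Gpc3 on the X chromosome. The promoter windows of both are shown because these genes were higher together with Lpl and both windows are rich in CpG. They run from 250 bases before to 50 bases after the annotated start, 5′ to 3′ on the gene's strand, from RefSeq on GRCm38.p6, with GC boxes (GGGCGG, or CCGCCC on the other strand) in capitals.
Fzd4, chr7:89404116-89404415, plus strand: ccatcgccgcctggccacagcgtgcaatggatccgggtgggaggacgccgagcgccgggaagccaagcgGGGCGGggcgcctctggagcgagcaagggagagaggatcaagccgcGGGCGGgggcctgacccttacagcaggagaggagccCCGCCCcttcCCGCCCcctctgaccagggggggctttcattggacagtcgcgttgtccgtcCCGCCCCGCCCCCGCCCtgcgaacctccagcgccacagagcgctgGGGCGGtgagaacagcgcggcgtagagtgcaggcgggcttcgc
Gpc3, chrX:52613925-52614224, minus strand: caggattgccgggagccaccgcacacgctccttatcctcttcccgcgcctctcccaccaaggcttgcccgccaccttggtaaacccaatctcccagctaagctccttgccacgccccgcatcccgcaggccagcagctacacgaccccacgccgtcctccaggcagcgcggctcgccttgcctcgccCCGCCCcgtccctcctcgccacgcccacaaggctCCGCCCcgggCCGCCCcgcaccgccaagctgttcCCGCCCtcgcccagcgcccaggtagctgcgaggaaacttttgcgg
The Fzd4 window is 72.7% G and C with 32 CpG and 8 matches to the GC box, and the Gpc3 window is 70.7% G and C with 30 CpG and 4 matches. Each holds 1 CCAAT on either strand and no TATAAA. Of the called genes, 24 higher and 44 lower ones had windows in the table. A GC box was found in 59.3% of the 27 windows of higher genes and 51.8% of the 56 windows of lower genes, against 35.7% of all 32851 windows. The letters ATCAAAG, which the TCF and LEF factors of the Wnt pathway can bind, were in 7.41%, 1.79% and 3.73% of these windows. The 32851 windows include genes that did not reach the level for testing, so they are no matched background for the called genes. The windows of Hhip and Cebpa, also called higher, held 2 and 0 matches to the GC box. These matches describe letters in a window, and nothing on binding was measured. Lpl and Fabp4 are named without a window.

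Among the other named genes higher in members were a chemokine, a cell-cycle regulator and enzymes. Cxcl13, the chemokine that draws B cells, was at 257 CPM in members and 59.0 CPM in other fibroblasts of tube 1, and at 314 and 60.1 CPM in tube 2. Cdkn1c, the cyclin-dependent kinase inhibitor p57, was at 449 and 130 CPM in tube 1 and at 376 and 158 CPM in tube 2. Cdkn1c was found in 47.4% of members of tube 1 at equal depth, in 17.1% of other fibroblasts and in 9.09% of leukocyte-marker cells. In tube 2 it was found in 44.3% of members, 25.3% of other fibroblasts and 0 of 8 leukocyte-marker cells.

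Slfn5, of the interferon-responsive Schlafen family, was at 224 CPM in members and 72.3 CPM in other fibroblasts of tube 1, and at 151 and 62.0 CPM in tube 2. Cygb, the globin of fibroblasts and stellate cells, was at 210 and 93.5 CPM in tube 1 and at 195 and 86.5 CPM in tube 2. Gfpt2, which catalyses the first step of the hexosamine pathway, was at 192 and 80.8 CPM in tube 1 and at 146 and 65.9 CPM in tube 2. The named enzymes were joined by Cyp1b1, a cytochrome P450 that oxidises steroids and xenobiotics, at 229 and 97.9 CPM in tube 1 and 152 and 69.2 CPM in tube 2. All of these were called at the 2-fold threshold in both tubes, with smaller ratios than Fzd4.

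The named genes that were lower in members of both tubes were Igfbp2, Dkk2, Cyp26b1, S100a4, Aldh3a1, Cdh4, Ndufa4l2 and Cpe. Igfbp2, which binds insulin-like growth factors, was at 59.3 CPM in members and 232 CPM in other fibroblasts of tube 1, and at 70.0 and 330 CPM in tube 2. Dkk2, a secreted antagonist of the Wnt co-receptors, was at 36.8 and 130 CPM in tube 1 and at 56.8 and 153 CPM in tube 2. Cyp26b1, which degrades retinoic acid, was at 146 and 442 CPM in tube 1 and at 276 and 583 CPM in tube 2. The calcium-binding S100a4, also called fibroblast-specific protein, was at 370 and 866 CPM in tube 1 and at 337 and 749 CPM in tube 2. At equal depth it was found in 38.5% and 36.0% of members and in 59.3% and 58.1% of other fibroblasts. In leukocyte-marker cells it was found in 86.4% and 62.5%. Whether those cells made S100a4 themselves or held it as free RNA was not tested, so they give no background for this gene.

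Aldh3a1, an aldehyde dehydrogenase, was at 28.7 CPM in members and 117 CPM in other fibroblasts of tube 1, and at 35.0 and 121 CPM in tube 2. Cdh4, the adhesion protein R-cadherin, was at 32.3 and 102 CPM in tube 1 and at 45.8 and 116 CPM in tube 2. Ndufa4l2, a mitochondrial protein that is high in pericytes, was at 97.7 and 318 CPM in tube 1 and at 150 and 313 CPM in tube 2. Cpe, which trims peptide hormones, was at 61.4 and 144 CPM in tube 1 and at 53.8 and 110 CPM in tube 2. Igfbp2 and Dkk2 were lower in members in every depth class of both tubes.

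**Figure D1:**
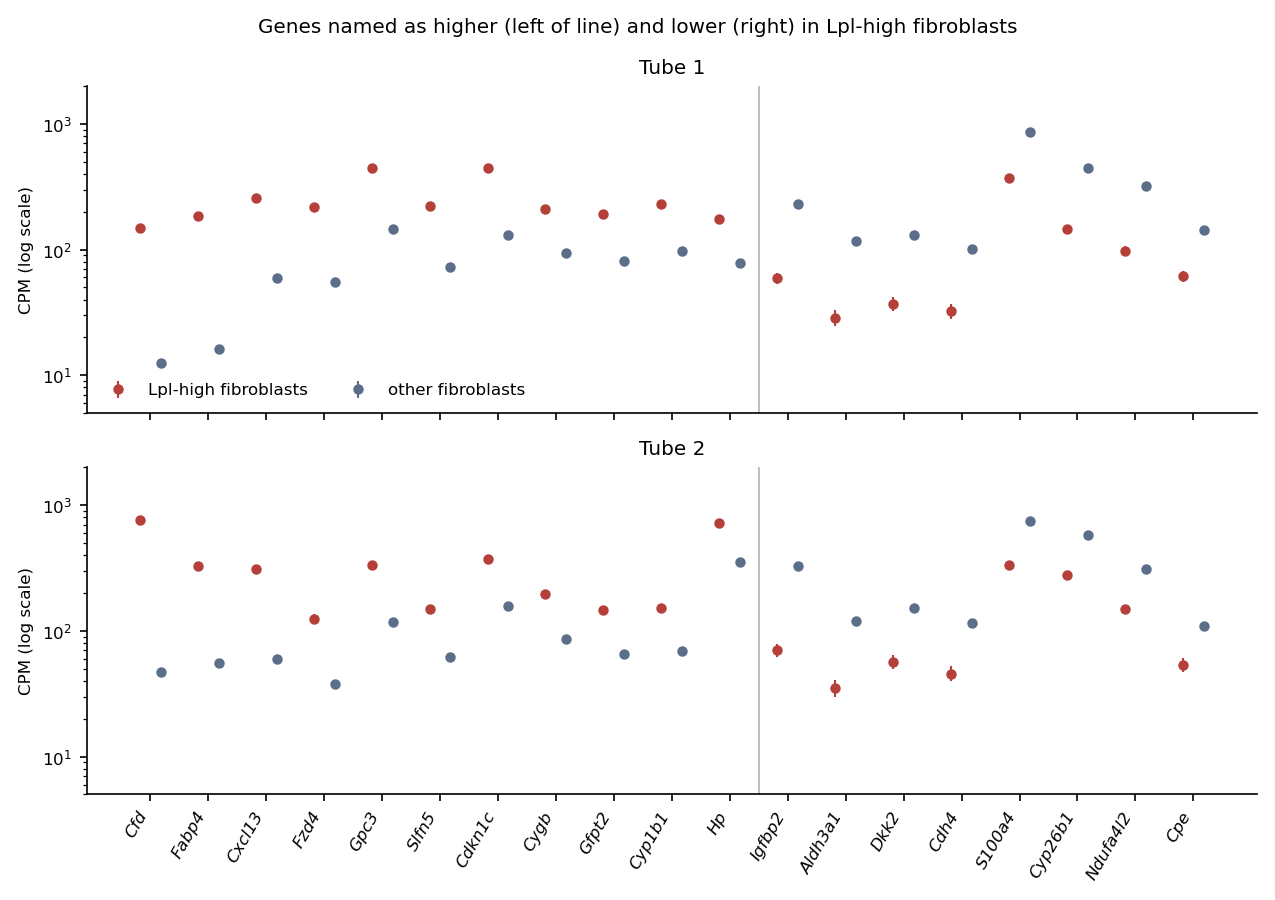
Pooled level in CPM (log axis) of the named genes in Lpl-high fibroblasts (left point of each pair) and in other fibroblasts (right point), in tube 1 and tube 2, with Poisson 95% intervals that cover counting error only. Fzd4 is at 219 and 55.3 CPM in tube 1, and the genes in the lower set, such as Igfbp2 at 59.3 and 232 CPM, run the other way in both tubes.

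Genes of mature fat cells gave the largest ratios, and they rested on a few cells. Of 12 genes on the mature adipocyte list, 5 reached the level for testing and 4 of these were called higher in members. Cfd, or adipsin, was at 149 CPM in members and 12.5 CPM in other fibroblasts of tube 1, and at 761 and 46.8 CPM in tube 2. Car3, an adipocyte carbonic anhydrase, was at 59.4 and 1.05 CPM in tube 1 and at 105 and 3.21 CPM in tube 2. Adipoq, the adipocyte hormone adiponectin, was at 13.2 and 0.444 CPM in tube 1 and at 32.8 and 1.96 CPM in tube 2. Retn, the hormone resistin, was at 15.7 and 0.948 CPM in tube 1 and at 45.4 and 3.21 CPM in tube 2. The summed level of the list was 265 CPM in members and 29.1 CPM in other fibroblasts of tube 1, and 1085 and 83.4 CPM in tube 2, while Lep was at 0 in members.

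The UMIs of Adipoq, Plin1, Cidec, Car3 and Retn were concentrated. In tube 1, 12 members (0.846%) held 94.7% of the 606 such UMIs of all members, and in tube 2, 13 members (2.5%) held 98.3% of 1232. Those 12 and 13 cells had Col1a1 at 6788 and 3974 CPM, against 15525 and 18096 CPM in all members. At least 1 such UMI was present in 36 members of tube 1 and 33 of tube 2 (2.54% and 6.33%), against 95 and 159 other fibroblasts (0.567% and 3.78%). Without all barcodes that carried one, a step added after seeing the data, Cfd was at 3.48 CPM in members and 4.91 CPM in other fibroblasts of tube 1, and at 14.8 and 24 CPM in tube 2, so the direction turned. Hp, haptoglobin, was at 175 CPM in members and 78.7 CPM in other fibroblasts of tube 1 and at 721 and 356 CPM in tube 2 with all barcodes. Without the marked barcodes it was at 97.7 and 75.9 CPM and at 623 and 359 CPM, and was no longer called. What these few barcodes were was not tested.

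Most of the remaining profile did not hang on those cells. Without them 28 genes were called higher, 26 of them among the original 41, and 58 were called lower, 57 of them among the original 62. The log2 ratios in tube 1 and tube 2 were then 1.96 and 1.71 for Fzd4, 1.63 and 1.54 for Gpc3, 2.06 and 2.41 for Cxcl13 and 1.79 and 1.26 for Cdkn1c. The values for genes of the fat lineage are given with and without these cells in what follows.

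**Figure D2:**
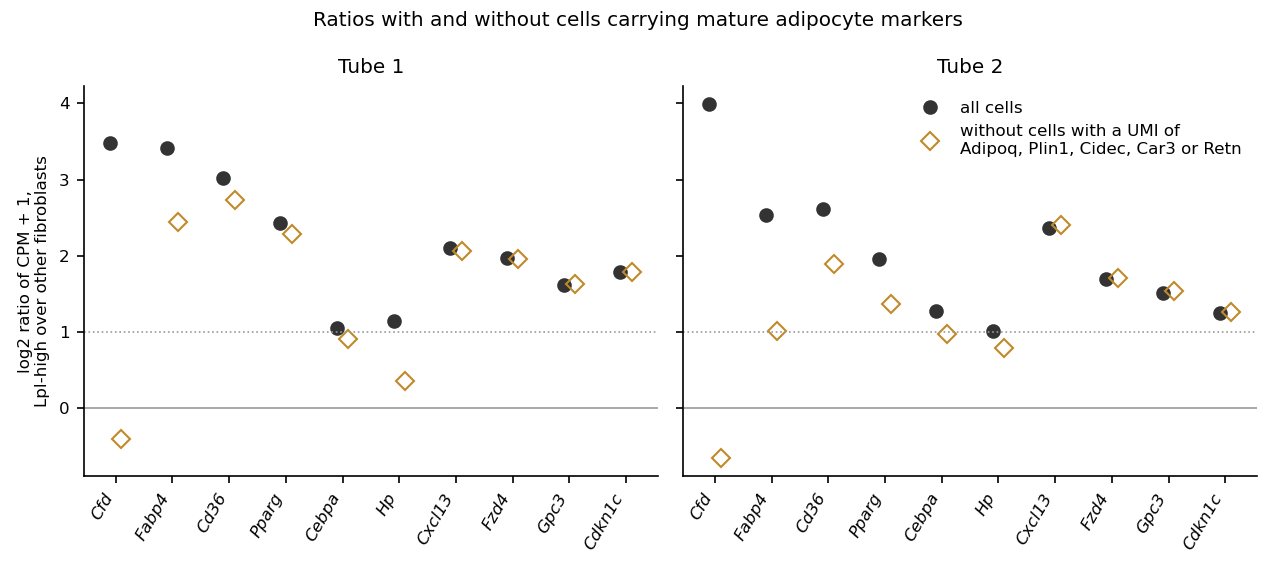
Log2 ratio of Lpl-high to other fibroblasts in each tube for lipid and other named genes, with all barcodes and without barcodes that held a UMI of Adipoq, Plin1, Cidec, Car3 or Retn. Cfd turns below 0 without them, whereas Fzd4 (1.96 and 1.71), Gpc3 and Cxcl13 stay over 1 in both tubes.

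Some early adipogenic genes were higher in members. Fabp4 was called with and without the marked barcodes, and Pparg, Cebpa and Cd36 were called only with them. Without them Pparg, Cebpa and Cd36 were still at a higher level in members of both tubes, but missed a limit of the call. Of 13 tested preadipocyte and early adipogenic genes, 4 were called higher (Pparg, Cebpa, Fabp4 and Cd36) and none lower. Fabp4, the fatty acid-binding protein of fat cells, was at 184 CPM in members and 16.3 CPM in other fibroblasts of tube 1, and at 328 and 55.6 CPM in tube 2. Without the adipocyte-marker barcodes it was at 87.6 and 15.3 CPM and at 105 and 51.4 CPM, and still called. Pparg, the nuclear receptor that drives adipogenesis, was at 19.9 and 2.88 CPM in tube 1 and at 11.0 and 2.10 CPM in tube 2. Without those barcodes it was at 17.8 and 2.84 CPM and at 6.71 and 1.99 CPM, under the 10 CPM needed for a call in tube 2. At equal depth, Pparg was found in 4.01% of members and 0.45% of other fibroblasts of tube 1, and in 1.93% and 0.27% in tube 2.

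Cebpa, a transcription factor that acts with Pparg, was at 28.1 CPM in members and 13.1 CPM in other fibroblasts of tube 1, and at 30.7 and 12.1 CPM in tube 2. Its log2 ratios without the marked barcodes were 0.91 and 0.97, just under the threshold. Cd36, a fatty acid transporter, was at 15.8 and 1.07 CPM in tube 1 and at 16.8 and 1.91 CPM in tube 2, and without those barcodes at 12.8 and 1.08 CPM and at 8.79 and 1.65 CPM. Of 19 tested adipogenic and anti-adipogenic transcription factors, only Pparg and Cebpa were called, and the list's median log2 ratio was 0.24 and 0.26. Ebf1, an early B-cell factor that also acts in fat precursors, was at 626 and 321 CPM in tube 1 and at 357 and 243 CPM in tube 2, short of a call. Its relative Ebf2 was at 21.8 and 9.38 CPM in tube 1 and at 11.4 and 7.36 CPM in tube 2, also short of a call.

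The proteins that act directly on lipoprotein lipase showed no such difference. Of 30 tested partners of the enzyme and genes of lipid handling, Cd36, Fabp4 and Pparg were called higher and none lower. Lmf1 and Sel1l, which help the enzyme fold and leave the endoplasmic reticulum, were close in both populations. Lmf1 was at 14.0 CPM in members and 13.5 CPM in other fibroblasts of tube 1, and at 11.2 and 12.7 CPM in tube 2. Sel1l was at 85.3 and 80.9 CPM in tube 1 and at 80.8 and 73.8 CPM in tube 2. Angptl4, an inhibitor of the enzyme, was at 167 and 117 CPM in tube 1 and at 241 and 155 CPM in tube 2. Gpihbp1, the endothelial carrier of the enzyme, was at 0.161 CPM in members of tube 1 and at 0 in those of tube 2. Plin2, which coats lipid droplets in many cell types, was at 114 and 71.4 CPM in tube 1 and at 137 and 71.2 CPM in tube 2, under the 2-fold threshold. Apoe, a ligand of lipoprotein receptors, differed in direction, at 760 CPM in members and 1167 CPM in other fibroblasts of tube 1 and at 874 and 791 CPM in tube 2.

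Of 13 tested Wnt receptors, co-receptors and ligands, Fzd4 and Lgr4 were called higher, Wnt5a and Rspo1 lower, and 9 neither. Lgr4, a receptor of R-spondins, was at 59.6 CPM in members and 21.5 CPM in other fibroblasts of tube 1, and at 39.5 and 17.3 CPM in tube 2. Wnt5a, a ligand mostly of non-canonical signalling, was at 28.1 and 73.3 CPM in tube 1 and at 21.4 and 72.9 CPM in tube 2. Rspo1, an R-spondin, was at 16.6 and 59.5 CPM in tube 1 and at 28.7 and 67.1 CPM in tube 2. The other Frizzled genes were not called. Fzd1 was at 72.2 and 51.2 CPM in tube 1 and at 57.9 and 46.5 CPM in tube 2, and Fzd2 at 84.6 and 97.3 CPM and at 94.2 and 95.3 CPM. The co-receptor Lrp6 was at 96.4 and 92.3 CPM in tube 1 and at 125 and 97.5 CPM in tube 2.

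Of 10 tested secreted Wnt inhibitors and Wnt targets, Dkk2, Axin2 and Nkd2 were called lower and none higher, and the list's median log2 ratio was -0.84 in tube 1 and -0.43 in tube 2. Axin2, a feedback inhibitor that canonical Wnt signals induce, was at 3.71 CPM in members and 14.4 CPM in other fibroblasts of tube 1, and at 13.2 and 37.0 CPM in tube 2. Nkd2, another feedback inhibitor, was at 9.04 and 28.1 CPM in tube 1 and at 20.1 and 54.7 CPM in tube 2. Its relative Nkd1 was at 6.30 and 21.8 CPM in tube 1 and at 13.8 and 24.7 CPM in tube 2, short of a call. Axin2 and Nkd2 are also the 2 genes called lower among 9 tested genes of papillary, that is upper dermal, fibroblasts. Sfrp1, a secreted inhibitor, was at 168 and 170 CPM in tube 1 and at 228 and 147 CPM in tube 2.

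Of 19 tested glypicans, syndecans and heparan sulfate enzymes, Gpc3 and Hs3st1 were called higher and none lower. Hs3st1, which adds a sulfate group to heparan chains, was at 29.2 CPM in members and 8.25 CPM in other fibroblasts of tube 1, and at 22.9 and 8.80 CPM in tube 2. Gpc4 went the other way without a call, at 48.3 and 73.7 CPM in tube 1 and at 47.3 and 77.1 CPM in tube 2. Gpc6 was at 44.6 and 28.2 CPM in tube 1 and at 16.6 and 19.8 CPM in tube 2. Sulf2, an enzyme that takes sulfate off heparan chains outside the cell, was at 98.3 and 234 CPM in tube 1 and at 93.3 and 179 CPM in tube 2, short of a call in tube 2. Among the glypicans, Gpc3 was thus the one that passed in both tubes.

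In the hedgehog and insulin-like growth factor list, Hhip was called higher and Igfbp2 lower among 19 tested genes. Hhip, a membrane protein that binds hedgehog ligands and is itself induced by them, was at 50.7 CPM in members and 11.7 CPM in other fibroblasts of tube 1, and at 16.4 and 7.50 CPM in tube 2. Gli1, a target and transcription factor of the pathway, was at 33.7 and 12.4 CPM in tube 1 and at 20.1 and 10.4 CPM in tube 2, with log2 ratios of 1.37 and 0.88 and no call. Ptch1, the receptor and a target, was at 70.9 and 38.5 CPM in tube 1 and at 35.4 and 30.5 CPM in tube 2. The ligand genes Shh, Ihh and Dhh had no UMI in members of either tube, which allows up to 0.484 CPM in tube 1 and 0.648 CPM in tube 2. Igf1, a growth factor that also acts in fat precursors, was at 729 and 484 CPM in tube 1 and at 326 and 246 CPM in tube 2.

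None of 29 tested genes on the list of collagens and fibrillar matrix was called. Their median log2 ratio was -0.05 in tube 1 and 0.02 in tube 2. Other matrix genes, not on that list, were called lower in members, among them Col7a1, Col11a1, Tnn and Matn4. Eln, which encodes elastin, was at 834 CPM in members and 1912 CPM in other fibroblasts of tube 1, and at 1597 and 1879 CPM in tube 2. Postn, the matricellular protein periostin, was at 3256 and 1310 CPM in tube 1 and at 1548 and 894 CPM in tube 2, past the threshold in tube 1 alone. Of 13 tested basement membrane genes, 1 was called higher, Nid2, the linker protein nidogen-2, at 35.7 and 13.8 CPM in tube 1 and at 35.6 and 12.3 CPM in tube 2. Col4a1 was at 564 and 279 CPM in tube 1 and at 559 and 337 CPM in tube 2 without a call. Of 21 tested genes of BMP and TGF-beta signalling, 2 were called lower. Bmp7, a ligand, was at 5.65 and 16.4 CPM in tube 1 and at 7.99 and 26.1 CPM in tube 2. Grem1, which blocks BMP ligands, was at 21.8 and 59.5 CPM in tube 1 and at 62.4 and 182 CPM in tube 2.

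Of 25 tested chemokines, cytokines and complement genes, 2 were called higher, Cxcl13 and Hp, and of these Cxcl13 alone was called without the adipocyte-marker barcodes. Cxcl12, the chemokine that holds leukocytes and stem cells in their niches, was at 1939 CPM in members and 925 CPM in other fibroblasts of tube 1, and at 1154 and 609 CPM in tube 2. Its log2 ratio of 0.92 in tube 2 lay under the threshold. At equal depth it was found in 89.8% of members and 63.3% of other fibroblasts of tube 1, and in 74.1% and 55.7% in tube 2, with 63.6% and 25% of leukocyte-marker cells as background. Complement C4b was at 278 and 484 CPM in tube 1 and at 222 and 427 CPM in tube 2. Saa3, an acute phase protein, differed in direction, at 2482 CPM in members and 3726 CPM in other fibroblasts of tube 1 and at 6029 and 3360 CPM in tube 2.

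Markers of most other cell types were low in members or absent. The summed level of 12 macrophage and dendritic markers was 31.2 CPM in members and 61.9 CPM in other fibroblasts of tube 1, and 45.1 and 44.8 CPM in tube 2, with Itgax at 0. The sum over 12 endothelial markers was 11.6 and 21.5 CPM in tube 1 and 12.5 and 22.1 CPM in tube 2, with Emcn, Vwf and Lyve1 at 0. For 12 keratinocyte markers it was 83.8 and 81.2 CPM in tube 1 and 75.4 and 98.8 CPM in tube 2. For 10 pericyte and smooth muscle markers it was 167 and 446 CPM in tube 1 and 224 and 477 CPM in tube 2, with Ndufa4l2 and Des called lower. For 10 Schwann and neural markers it was 25.2 and 19.8 CPM in tube 1 and 27.9 and 32.0 CPM in tube 2. Within that list S100b was called higher, at 17.1 and 4.06 CPM in tube 1 and at 11.2 and 4.05 CPM in tube 2, while Sox10 and Foxd3 were at 0. Of 8 tested myofibroblast and contractile genes, 1 was called lower and none higher. It was Tagln, an actin-binding protein, at 19.5 and 64.8 CPM in tube 1 and at 56.4 and 130 CPM in tube 2. The sum over the 10 genes of that list, which include Postn, was higher in members, at 3931 and 2096 CPM in tube 1. In tube 2 it was 2090 and 1768 CPM.

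None of 20 immediate early and stress genes, 11 tested cell-cycle genes and 21 tested positional and lineage factors was called. The same held for 10 tested genes of reticular and hypodermal fibroblasts, 5 of dermal papilla and 3 of tendon, cartilage and bone. At 2000 UMIs per cell, Mki67, a marker of cycling cells, was found in 1.26% of members and 2.15% of other fibroblasts of tube 1, and in 1.35% and 2.10% in tube 2. Prrx1, the gene whose enhancer defines the lineages, was at 591 and 616 CPM in tube 1 and at 569 and 558 CPM in tube 2. En1, which marks a dermal lineage of the trunk, was at 41.8 and 39.5 CPM in tube 1 and at 57.2 and 45.6 CPM in tube 2. Osr2 was at 125 and 226 CPM in tube 1 and at 120 and 234 CPM in tube 2, short of a call.

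The differences did not begin at the threshold of 5 Lpl UMIs. Fibroblasts of tube 1 with 0, 1 to 2, 3 to 4, 5 to 9, 10 to 19 and at least 20 Lpl UMIs had Fzd4 at 31.7, 74.4, 146, 187, 274 and 319 CPM. Gpc3 was at 106, 178, 309, 417, 508 and 524 CPM over the same classes. Dkk2 ran the other way, at 150, 111, 61.4, 42.2, 27.9 and 20.2 CPM, and S100a4 at 999.9, 716, 499, 402, 325 and 228 CPM. In tube 2, Fzd4 was at 26.1, 39.8, 62.6, 91.9, 152 and 181 CPM and Gpc3 at 89.8, 120, 179, 242, 380 and 539 CPM. The classes held 10959, 4630, 1165, 959, 378 and 81 cells in tube 1 and 1952, 1750, 505, 309, 141 and 71 in tube 2. Cells with more Lpl UMIs are also deeper cells, and the classes share the libraries, so no test is given for this order.

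At the threshold itself Fzd4 and Gpc3 were slightly higher in the cells just inside than in those just outside, in both tubes. Tube 1 cells with exactly 5 Lpl UMIs had Fzd4 at 169 CPM and those with exactly 4 had it at 160 CPM, with Gpc3 at 376 and 347 CPM and Dkk2 at 59.8 and 59.9 CPM. In tube 2 cells with 5 Lpl UMIs had Fzd4 at 73.5 CPM and those with 4 had it at 67.3 CPM, with Gpc3 at 203 and 187 CPM and Dkk2 at 47.9 and 75.7 CPM. Among these genes, Dkk2 in tube 2 differed most across the threshold, and it was lower in the cells just inside.

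**Figure D3:**
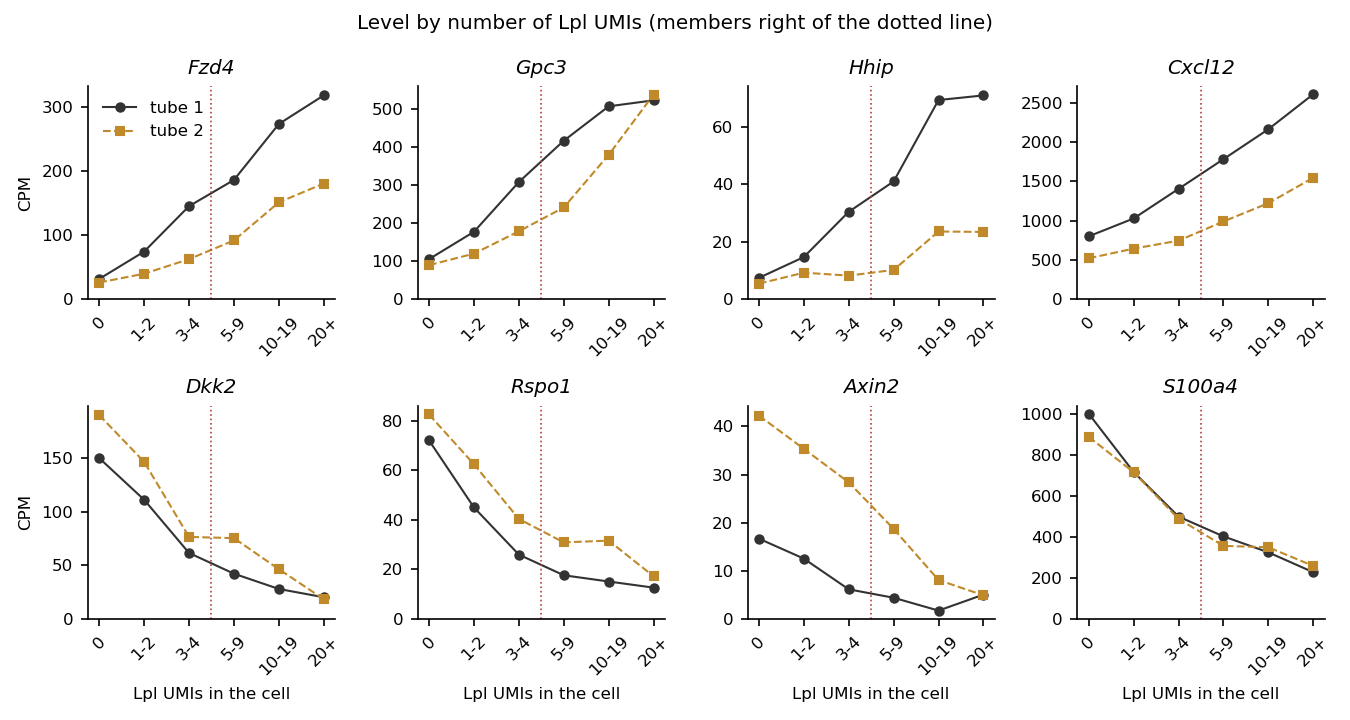
Pooled level in CPM of 8 genes against classes of Lpl UMIs per cell in tube 1 and tube 2, where the dotted line marks the start of membership at 5 UMIs. Fzd4, Gpc3, Hhip and Cxcl12 are higher in classes with more Lpl UMIs (Fzd4 31.7 to 319 CPM in tube 1), and Dkk2, Rspo1, Axin2 and S100a4 are lower.

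Set beside 2 fibroblast subsets chosen in the same way by 1 gene each, the members had more Fzd4, Gpc3 and Cdkn1c and less Dkk2 in both tubes. Cells with at least 5 UMIs of Pi16, the peptidase inhibitor that marks fascia and adventitial fibroblasts, numbered 1804 in tube 1 and 609 in tube 2. Cells with at least 5 UMIs of Coch, a matrix protein, numbered 144 and 87. Fzd4 was at 219 CPM in Lpl-high, 70.7 CPM in Pi16-high and 44.8 CPM in Coch-high cells of tube 1, and at 125, 56.9 and 36.0 CPM in tube 2. Gpc3 was at 449, 176 and 96.6 CPM in tube 1 and at 335, 170 and 140 CPM in tube 2. Dkk2 was at 36.8, 138 and 325 CPM in tube 1 and at 56.8, 166 and 339 CPM in tube 2. Cdkn1c was at 449, 152 and 73.1 CPM in tube 1 and at 376, 141 and 159 CPM in tube 2. Igfbp2 was at 59.3, 72.9 and 101 CPM in tube 1 and at 70.0, 157 and 158 CPM in tube 2.

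Against Pi16-high cells, 34 of 7824 tested genes were higher in Lpl-high cells (0.435%) and 24 were lower (0.307%). Against Coch-high cells, 114 of 8106 were higher (1.41%) and 180 were lower (2.22%). Of the 41 genes called higher against all other fibroblasts, 22 were also higher against Pi16-high and 25 against Coch-high cells. Of 61 genes called lower, 19 were also lower against Pi16-high and 23 against Coch-high cells. Much of the profile, and most of its lower genes, thus did not set the members apart from these subsets at 2-fold. The populations also overlap, since the subsets were kept apart only by the Lpl threshold. Among members, 166 in tube 1 (11.7%, interval 10.1 to 13.5) and 189 in tube 2 (36.3%, 32.1 to 40.6) held at least 5 Pi16 UMIs, against 10.8% and 14.5% of other fibroblasts. Members were deeper than other fibroblasts in both tubes, which can raise a share counted by UMIs, so these shares are not comparable as such. Pi16 in all members was at 421 CPM in tube 1 and 809 CPM in tube 2, against 564 and 539 CPM in other fibroblasts. Of 9 tested genes of Pi16 and fascia fibroblasts, none was called. Cells with at least 5 UMIs of Gdf10 were too few to compare, at 17 in both tubes together.

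Hashtag counts were used to ask whether the profile came from 1 pooled sample. Of 10 hashtag features, 6 had a median above 0 per kept cell. A first rule asked that the top hashtag hold at least 70% of a cell's hashtag counts, which assigned 3293 fibroblasts of tube 1 and 534 of tube 2. A second rule, added after seeing the data, divided each hashtag by its median in the tube and assigned 3656 and 763. Members were found under all 6 hashtags of both tubes by the second rule. Their share was 5.42%, 5.81%, 6.90%, 11.1%, 6.41% and 7.46% for hashtags 1 to 6 in tube 1, and 6.41%, 10.5%, 14.8%, 11.4%, 14.4% and 16.3% in tube 2. Hashtag 4 of tube 1 had the highest share there by either rule, 10.7% by the first (9.46 to 12) and 11.1% by the second (8.73 to 13.9).

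Fzd4, Gpc3, Pparg and Cdkn1c were higher in members under every hashtag with enough cells, and some other named genes were not. In the 8 hashtag groups with at least 20 members, 6 in tube 1 and 2 in tube 2, Fzd4 was higher in members in 8, with log2 ratios of 1.54 to 2.59. Gpc3 was higher in 8, with 1.46 to 2.20, Pparg in 8, with 1.80 to 4.33, and Cdkn1c in 8, with 0.81 to 2.45. Fabp4, Cxcl13 and Cebpa were higher in 7 of 8, and Cfd and Hp in 5 of 8. Slfn5 was higher in 6 of 8, those of tube 1, and had log2 ratios of -0.07 and -0.16 in the 2 groups of tube 2. Igfbp2 was lower in members in 8, with -3.79 to -1.59, as were Axin2, Nkd2 and S100a4, and Dkk2 was lower in 7 of 8. Groups of 20 to 68 members give imprecise ratios for genes of low level such as Pparg. Some barcodes carried 2 hashtags, 20.7% of members and 24.1% of other fibroblasts in tube 1, and 23.4% and 20.5% in tube 2.

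**Figure D4:**
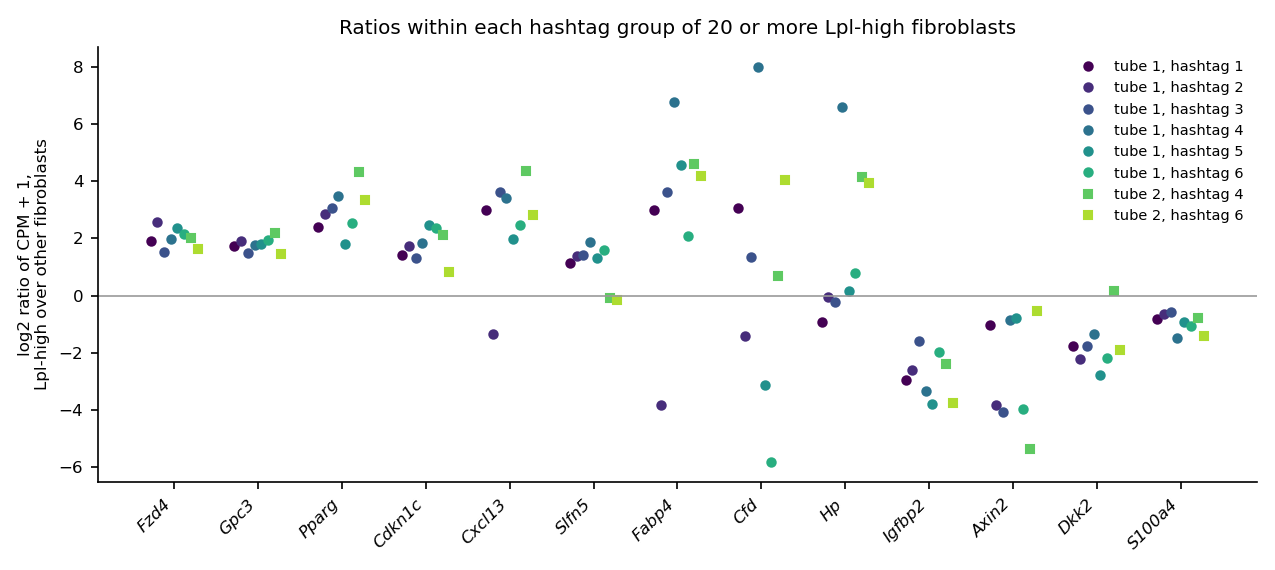
Log2 ratio of Lpl-high to other fibroblasts for named genes in each of the 8 hashtag groups with at least 20 members (hashtags 1 to 6 of tube 1, 4 and 6 of tube 2). Fzd4 (1.54 to 2.59) and Gpc3 (1.46 to 2.20) are above 0 in every group, Igfbp2 is below 0 in every group, and Cfd falls on both sides.

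The bulk libraries of sorted PPF and PNF took no part in choosing the members, so their genes can be tested there. In bulk, fewer cells of a type and less RNA per cell cannot be told apart. A pair of PNF libraries stood apart, since hemoglobin genes held 43.1% of the counts of E18.5 library 1 and 46.6% of those of P30 library 1, against at most 10% in the rest. Levels here are CPM from 4264647 to 17187950 counts in genes per library. Lpl was near the limit of detection, at 0 in 7 of 24 libraries, with a median of 1.00 CPM and a highest value of 15.9 CPM. At E16.5 it was at 3.11 and 0 CPM in PPF and at 0 and 0.135 CPM in PNF. At E18.5 it was at 0 and 2.33 CPM in PPF and at 0, 0.599, 2.83 and 1.07 CPM in PNF. At P1 it was at 2.03 and 6.83 CPM in PPF and at 0, 15.9, 0.937 and 1.48 CPM in PNF. At P30 it was at 1.41, 0, 0.664, 4.02, 3.33 and 6.26 CPM in PPF and at 0 and 0.889 CPM in PNF. The ranges of PPF and PNF overlapped at every age. The deposited counts appear to leave out reads shared between transcripts of a gene, and 75.3% of the exon bases of Lpl lie in a single listed transcript.

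Fzd4 and Gpc3 had higher median levels than Lpl in bulk. Of their exon bases, 100% for Fzd4 and 47.7% for Gpc3 lie in a single listed transcript, so the level of Gpc3 can read low. Among the other genes tested in bulk below, that share was 4.89% for Cdkn1c and 51.8% for Slfn5, so the same limit holds for them. Fzd4 was over 10 CPM in 23 of 24 libraries. It averaged 28.7 ± 6.38 CPM in PPF and 32.6 ± 2.07 CPM in PNF at E16.5 (SD, 2 libraries each), and 52.5 ± 16.9 CPM in PPF (2) and 53.7 ± 8.0 CPM in PNF (4) at E18.5. At P1 it was at 15.6 and 28.1 CPM in PPF and at 120, 101, 39.5 and 37.9 CPM in PNF, which do not overlap. At P30 it ran from 30.6 to 104 CPM in PPF with a mean of 68.0 ± 26.9, and was at 0 CPM in PNF library 1 and 50.5 CPM in PNF library 2. That PNF library at 0 drew 46.6% of its counts from hemoglobin genes.

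Gpc3 ran from 180 to 1951 CPM over all libraries. It averaged 1070 ± 170 CPM in PPF and 706 ± 11.0 CPM in PNF at E16.5, and 855 ± 7.86 CPM in PPF and 1026 ± 459 CPM in PNF at E18.5. The PPF libraries of E16.5 lay above those of PNF, at 951 and 1190 CPM against 714 and 698 CPM, and at E18.5 the ranges overlapped. At P1, PPF averaged 1602 ± 495 CPM and PNF 1154 ± 830 CPM, and at P30 PPF averaged 472 ± 196 CPM and PNF 460 ± 224 CPM. The spread between libraries was larger than the difference between PPF and PNF at P1 and at P30.

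**Figure D5:**
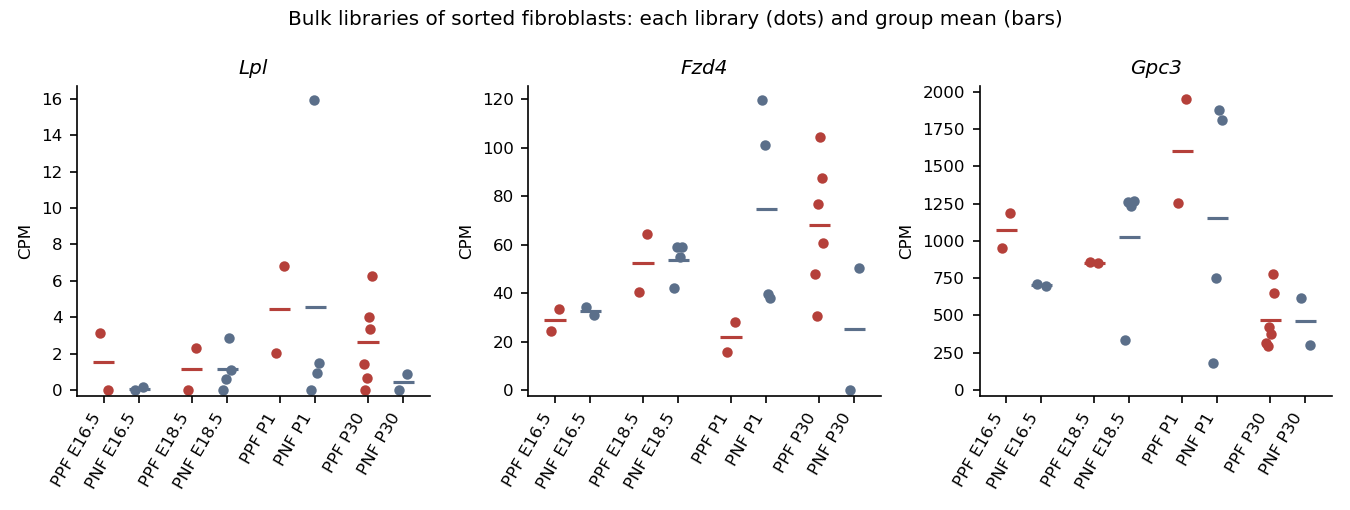
Level in CPM of Lpl, Fzd4 and Gpc3 in each bulk library, with PPF left of PNF at E16.5, E18.5, P1 and P30 and a bar at each group mean. Lpl stays under 10 CPM in 23 of 24 libraries, and PPF and PNF overlap at P30 for Lpl and Fzd4.

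In edgeR's quasi-likelihood test with Benjamini-Hochberg adjustment over 15557 genes, none of Lpl, Fzd4, Gpc3 or the other 9 genes described above as higher in members passed 0.05 in any of 4 comparisons. Of these 12 genes, none had an unadjusted p under 0.05 in the average over ages or in PPF by age, 1 had at P30 and 1 in PNF by age. Over all 15557 genes, 2163 had such a p in the average, 1515 at P30, 2061 in PPF by age and 836 in PNF by age. Lpl, Fzd4 and Gpc3 did not pass by DESeq2 or limma-voom either. In simulated counts, where the changed genes averaged at least 10 CPM, the edgeR test recovered 115 of 200 genes changed 4-fold in the average. At P30, in PPF by age and in PNF by age it recovered 0 of 200. A gene that did not pass can therefore still differ. Genes under that level, such as Lpl with a median of 1.00 CPM, were not among those changed, so recovery was not measured for them. In the average of PPF against PNF over 4 ages, 105 genes passed (0.675%), and at P30 19 (0.122%). In PPF at P30 against E16.5, 113 passed (0.726%). In PNF at P30 against E16.5, 0 passed (0%), with 836 at an unadjusted p under 0.05, and DESeq2 called 102 there and limma-voom 458. For Lpl the log2 difference between PPF and PNF was 1.65 (SE 1.09, adjusted p 0.568) in the average and 2.33 (SE 2.20, adjusted p 0.810) at P30. Fzd4 differed by -0.14 (adjusted p 1 in edgeR) in the average and 1.41 (0.720) at P30, and Gpc3 by 0.21 (0.912) and 0.04 (1). Between P30 and E16.5 in PPF, Lpl differed by 0.77 (adjusted p 0.927 in edgeR), Fzd4 by 1.24 (0.623) and Gpc3 by -1.18 (0.390). Without both hemoglobin-rich libraries, none of these genes passed either, and the difference of PPF from PNF at P30 was 1.5 for Lpl, 0.39 for Fzd4 and 0.61 for Gpc3. Without PNF P30 library 2, which leaves only the hemoglobin-rich library in that group, Fzd4 passed with a log2 difference of 12.1 at P30 (adjusted p 0.000107 in edgeR) and 2.5 in the average (0.00413). Over all alternatives the adjusted p of Fzd4 ran from 0.000107 to 1 at P30, and that of Lpl from 0.366 to 1.

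Among these genes the lowest adjusted p was that of Gfpt2 at P30 against E16.5 in PPF, 0.380 in edgeR, with a log2 difference of 1.97. Of the 41 genes higher in members, 35 were tested in bulk and none passed in edgeR in any of the 4 comparisons. Among them 7 had an unadjusted p under 0.05 in the average, 3 at P30, 11 in PPF by age and 4 in PNF by age. Over all 15557 genes tested, 2163, 1515, 2061 and 836 had such a p, in the same order. Of the 62 genes lower in members, 55 were tested and 1 passed, Mcpt4, a protease of mast cells, which was lower in PPF than in PNF in the average (adjusted p 0.0240 in edgeR). Mcpt4 was at 0 in both PPF libraries of E16.5 and at 59.2 and 32 CPM in PNF there, and at 260 and 39.8 CPM in PPF and 44.9 to 503 CPM in PNF at P1. Its fitted log2 difference of -7.66 rests on such zeros and depends on the small count that the fit adds. The median log2 difference in the average was -0.08 over the higher genes, -0.03 over the lower genes and -0.14 over all tested genes. At P30 these medians were 0.46, 0.74 and 0.38.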

How the data were processed

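Fibroblasts of mouse skin were profiled in 2 droplet (10x Chromium) libraries of pooled, hashtagged cells and in 24 bulk libraries of amplified low-input cDNA. The deposited single-cell matrices hold UMI counts for 31053 gene rows, on mm10, and 10 hashtag rows, and the submitters' processing notes name Seurat 3.1.1 and 3.2. The deposited bulk tables hold read counts per transcript, made by the authors with featureCounts on mm10 according to the labels and tables, and the aligner and annotation release are not given in the sources used here. Transcripts were joined to GENCODE vM21, 82916 of 95883 were found, and between 3.33% and 7.10% of the counts of a library fell in the rest. Counts were summed to 34002 genes. Transcripts without a base of their own, 18706 in number, held 0.279% of all counts, so reads shared by transcripts seem to be missing from the counts, which lowers genes with many isoforms. Barcodes were kept, and members and other fibroblasts chosen, as the report states. The matrices held 69883875 UMIs over 27519 barcodes in tube 1 and 28587453 over 5567 barcodes in tube 2, of which 18374 and 4779 were kept, and 42 barcode sequences occur in both tubes. No doublet caller was run, and barcodes with 2 hashtags were left out in an alternative. As background served kept barcodes with at least 10 UMIs of the macrophage and dendritic list that were not members, 41 in tube 1 and 12 in tube 2. Neither a Ptprc UMI nor absence of Col1a1 was asked of them, so they can include other fibroblasts. The kept barcodes outside the fibroblasts, 202 and 51, had no other use. UMIs were pooled per tube and population. With 1 sample per tube no p-value was computed, and intervals (Poisson for levels, Clopper-Pearson for shares, at 95%) cover counting error only. Named genes are Lpl, Fzd4 and Gpc3, up to 15 higher and 10 lower called genes with the largest ratio in the lesser tube and at least 100 CPM, which gave 12 and 8 (1 of the 12 is not reported here), and up to 4 genes of each of 29 lists. Bulk genes were filtered with filterByExpr and scaled by TMM, and edgeR 4.0.16 (R 4.3.3) fitted 8 groups by quasi-likelihood with 16 residual degrees of freedom and a biological coefficient of variation (common to all genes) of 1.03. P-values are two-sided and adjusted over 15557 genes. Replicate letters do not pair the samples. The edgeR tests were tried on simulated counts with 200 changed genes that averaged at least 10 CPM. At a 4-fold change they recovered 115 in the average and 0 at P30, in PPF by age and in PNF by age. At 16-fold they recovered 199, 130, 126 and 55 in the same order. The single-cell calls, on simulated counts with counting error only, recovered 200 of 200 at 3-fold. That change lies past the 2-fold threshold, and no spread between cells or samples was simulated. The recovery therefore checks the computation only. Alternatives used limma 3.58.1 and DESeq2 1.42.0, python 3.11.15 served for the rest, and promoters came from RefSeq. The members, lists and tests were chosen with earlier results of these data known.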

Additional observations from a re-analysis of the deposited data

Results flagged for a closer look

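In bulk, 36 groups of 4 to 10 libraries (12 genes in 3 groups) were searched for libraries far from the rest. Such a library was found in 9. The rule flags about 1 in 20 when values are normally distributed and groups independent. These CPM are skewed and the 12 genes share the same libraries, so the 9 cannot be set against that rate. PNF P1 library 2 had Lpl at 15.9 CPM, with the next library at 1.48 CPM, and it was also the highest of its group for Cfd (5200 CPM, next 54.1 CPM), Hp (939 CPM, next 12.1 CPM) and Cxcl13 (2.06 CPM, next 0.348 CPM). PPF P30 library 1 was the highest of its group for Cfd (770.2 CPM, next 8.63 CPM), Hp (421 CPM, next 17.3 CPM) and Cxcl13 (116 CPM, next 37.7 CPM), while its Lpl was 1.41 CPM. PNF E18.5 library 1, with 43.1% of its counts in hemoglobin genes, was the lowest for Gpc3 at 338 CPM, with the others at 1232 to 1271 CPM, and the highest for Hp at 279 CPM, with the next at 19.5 CPM. What these libraries have in common beyond these values was not tested.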

How the results depend on the processing

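In single cells, Fzd4, Gpc3, Fabp4, Cxcl13, Slfn5, Cdkn1c, Cygb, Aldh3a1 and Dkk2 were called in 14 of 14 alternatives, and Hp in 6, the fewest of the named genes. Members numbered 220 in tube 1 at no more than 5% mitochondrial UMIs. They numbered 2583 and 1026 in tubes 1 and 2 with at least 3 Lpl UMIs, and 459 and 212 with at least 10. Higher and lower genes numbered 22 and 31 with at least 3 Lpl UMIs, 72 higher with at least 10, and 16 and 17 both with a minimum of 50 CPM and with 10 CPM added. By 1 tube alone they numbered 87 and 98 without tube 1, and 95 and 144 without tube 2. Without barcodes holding at least 2 UMIs of other cell types' markers, the log2 ratio was -0.61 for Cfd, -0.0646 for Adipoq and -0.47 for Retn, and without adipocyte-marker barcodes it was -0.53 for Cfd. With hashtags divided by their medians, 7.19% of assigned tube 1 fibroblasts were members. Of 1288 values for 92 genes, 1009 moved by less than counting error, 275 by more, and 4 turned.

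In bulk the count of genes passing depended on the method, in the order average, P30, PPF by age and PNF by age. It was 428, 144 and 182 for the first 3 without a filter, 788, 34, 1139 and 458 by limma-voom, and 833, 227, 951 and 102 by DESeq2. At P30 it was 9 with RLE scaling and 1 with only the groups compared. Without both hemoglobin-rich libraries it was 320, 6, 411 and 13. Without each library in turn it ran from 2 to 1479, 3 to 2687, 0 to 153 and 0 to 1693, and the 3 highest counts came without PNF P30 library 2. Replicate letters did not pair the samples (correlations from -0.12 to 0.11), and with letters as a replicate block it was 28, 0 and 0 for the first 3, with Gpc3 at -0.96 at P30 and Lpl at -1.25 in PPF by age. Fzd4 in PNF by age turned to 0.0479 with RLE scaling, 0.0491 by DESeq2, 0.0768 by limma-voom and 0.64 without the hemoglobin-rich libraries. Leaving out 1 library, Lpl ran from -0.0644 to 2.87 in the average, -0.18 to 7.49 in PPF by age and -2.32 to 5.20 in PNF by age. Gpc3 at P30 ran from -0.33 to 0.59. Fzd4 ran from -0.42 to 2.5 in the average, 0.37 to 12.1 at P30 and -11.0 to 0.65 in PNF by age, where 2.5, 12.1 and -11.0 came without PNF P30 library 2 and passed (adjusted p 0.000361 in edgeR for PNF by age). The cause was not tested.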

Other observations

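Cdkn1c and Zim1, both called higher in Lpl-high fibroblasts, are imprinted genes, expressed from 1 parental allele. A list of 18 imprinted genes, put together after these values were seen, was therefore looked up. Of 14 that could be tested, these 2 were called higher and none lower, and 9 had a ratio above 0 in both tubes. How many of all tested genes lay above 0 in both tubes was not counted. The median log2 ratio was 0.32 in tube 1 and 0.18 in tube 2, against 0.03 and 0.02 over all tested genes. Cdkn1c and Zim1 prompted the list and count in these values, so the list gives no support of its own. Zim1, a zinc finger gene, was at 77.5 CPM in Lpl-high and 22.0 CPM in other fibroblasts of tube 1, and at 35.0 and 12.6 CPM in tube 2. Peg3, its neighbour, was at 656 and 248 CPM in tube 1 and at 361 and 192 CPM in tube 2, short of a call in tube 2. H19 was at 65.2 and 53.6 CPM in tube 1 and at 40.0 and 29.2 CPM in tube 2. Mest differed in direction, at 20.7 and 16.6 CPM in tube 1 and at 3.67 and 10.4 CPM in tube 2. No UMI of Igf2 was found in Lpl-high fibroblasts.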
